A study of Mus musculus with 12 samples.

Results

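*Efna1*, *Efna2*, *Efna3*, *Efna5* and *Epha2* are the 5 genes of the ephrin and Eph receptor family on a mouse cancer pathway panel of 770 genes. They were chosen by their symbols, and the family has 22 protein-coding genes in the RefSeq table of mouse genes, 14 of them receptors. Of the 5 ephrin-A ligand genes only *Efna4* was not on the panel, and of the receptors only *Epha2* was. RNA was counted with color-coded probes (nCounter) in 12 mouse samples, each from a different animal and measured once. The spread within a group thus holds both the spread between animals and that of the measurement.

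The 5 *RBS* lesions came from Rax-creERT2::Ctnnb1(ex3)Fl/+SmoM2Fl/+ embryos at E18.5, after tamoxifen at E8.5. In these mice the *Rax* promoter, which is active in the early eye field, drives an inducible Cre that stabilizes β-catenin by removing exon 3 and switches on the active Smoothened variant SmoM2. The authors reported that such lesions replaced ocular structures. For the RNA samples, they checked this by histology of the other eye of the same animal. The 4 control eyes, also at E18.5, carried the same floxed alleles, Ctnnb1(ex3)Fl/+SmoM2Fl/+, without Cre. For them no tamoxifen day is given in the sample labels, so their exposure is not known here. The 3 Shh-MBs were cerebellar tumors of hGFAP-cre::SmoM2Fl/+ mice at the age of 14 days, in which Cre acts in neural progenitors and SmoM2 is the allele it switches on. Shh-MBs differed from both eye groups in tissue, age and genotype, and these cannot be told apart here.

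Ephrin-A ligands are held on the cell surface by a lipid anchor and bind EphA receptor tyrosine kinases on neighboring cells. Contact starts a signal in the receptor cell, and often also in the ligand cell, that changes the actin cytoskeleton and commonly makes axons or cells turn away. In the visual system, gradients of ephrin-A2 and ephrin-A5 in the midbrain guide the axons of retinal ganglion cells to their map positions. EphA2 is best known from epithelial cells, where ephrin-A1 is one of its main ligands, and from the lens.

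*Efna1* and *Efna3* are direct neighbors on chromosome 3, with *Efna4* after *Efna3*, while *Efna2* lies on chromosome 10, *Efna5* on chromosome 17 and *Epha2* on chromosome 4. The promoter sequences of the 3 genes that differed between *RBS* lesions and control eyes are shown to set their base composition side by side. Each is the run of 250 bases before the outermost annotated start, 5′ to 3′ on the strand of the gene, from RefSeq (GRCm38.p6), with CG dinucleotides in capitals. The windows are chr3:89322940-89323189 on the minus strand for *Efna3*, chr17:62881318-62881567 on the minus strand for *Efna5* and chr4:141300971-141301220 on the plus strand for *Epha2*.
Efna3: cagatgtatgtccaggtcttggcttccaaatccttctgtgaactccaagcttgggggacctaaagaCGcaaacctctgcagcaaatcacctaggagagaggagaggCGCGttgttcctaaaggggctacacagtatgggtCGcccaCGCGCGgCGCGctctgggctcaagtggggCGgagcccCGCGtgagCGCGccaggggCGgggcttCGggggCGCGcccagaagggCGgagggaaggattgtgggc
Efna5: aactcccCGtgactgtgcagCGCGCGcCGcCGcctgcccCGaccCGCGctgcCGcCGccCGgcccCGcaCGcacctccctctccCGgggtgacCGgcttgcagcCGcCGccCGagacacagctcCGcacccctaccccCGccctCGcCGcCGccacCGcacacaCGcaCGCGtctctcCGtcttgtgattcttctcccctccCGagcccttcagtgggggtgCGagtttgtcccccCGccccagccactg
Epha2: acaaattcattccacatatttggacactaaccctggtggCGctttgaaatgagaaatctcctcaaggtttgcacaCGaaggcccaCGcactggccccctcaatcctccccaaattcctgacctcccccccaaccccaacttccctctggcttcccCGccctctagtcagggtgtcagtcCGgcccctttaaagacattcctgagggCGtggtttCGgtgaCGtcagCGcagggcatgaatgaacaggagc
The *Efna5* window held 32 CG dinucleotides and 74.8% G or C, and 95.4% of the 32851 mouse promoter windows of this length held fewer CG dinucleotides. The *Efna3* window held 19, more than 80.3% of all windows, and the *Epha2* window 9, more than 59.7%, against a median of 6. The window before another annotated start of *Efna3* held 31, more than 94.8%, so its count depends on the start taken. The ligand windows were thus richer in CG than that of the receptor gene. As the alleles of the lesions act on Hedgehog and Wnt signaling, the windows were also searched on both strands for the Gli motif TGGGTGGTC and the TCF/LEF motif CTTTGAT. Neither was present in any of the 7 windows of the 5 genes, which says only that these letters are not there; 0.225% and 3.21% of all windows held them.

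Signal totals divided by the step between low values gave 335269 to 638110 counts above background for *RBS* lesions, 589999 to 716967 for control eyes and 541188 to 707044 for Shh-MBs. Between 52 and 123 of the 770 genes lay at the lowest value of their sample. Values below are normalized signals on the linear scale, and differences are on the log2 scale of the signal plus 1. As probes differ in efficiency, levels were compared between samples of 1 gene and not between genes. A gene is called where limma gave an adjusted *p* under 0.05 over all 770 genes.

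In *RBS* lesions, the ligand genes *Efna5* and *Efna3* were higher than in control eyes, by 1.62-fold and 1.67-fold, and the receptor gene *Epha2* was 4.10-fold lower. *Efna1* and *Efna2* were not called. Thus 2 of 5 genes rose and 1 fell, where 33% of all panel genes rose and 18.2% fell. The groups did not overlap for 2 of the 5 genes, *Efna5* and *Epha2*, against 43.4% of all panel genes. Beside these shares the counts over 5 genes do not set the family apart, and the results below are those of single genes. The methods' t-test was run with *p* from the t distribution, without its permutations. After step-down Bonferroni adjustment of these values none of the 3 calls remained, while with Benjamini-Hochberg all 3 did.

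*Efna5* encodes ephrin-A5, a repellent for retinal axons. Its signal was 409, 332, 322 and 341 in the 4 control eyes and 591, 592, 524, 600.3 and 541 in the 5 *RBS* lesions. All lesions lay above all control eyes. The lesions averaged 570 ± 34.7 (SD, n = 5), the control eyes 351 ± 39.4 (SD, n = 4). The log2 difference was 0.70 (SE 0.0971, 95% interval 0.48 to 0.92, limma adjusted *p* = 0.00034), and the exact permutation test gave 0.00794, the smallest *p* this design allows. It stayed above the median of all panel genes, which was itself 0.17 higher in *RBS* lesions. Quantile normalization gave 0.46, still past the threshold.

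*Efna3* encodes ephrin-A3, a ligand of the same class. Control eyes had signals of 73.3, 48.0, 60.9 and 53.2, and *RBS* lesions 115.3, 63.3, 90.3, 118 and 104. The groups overlapped through 1 sample each, since *RBS* lesion 2 lay below control eye 1, while the other 4 lesions lay above every control eye. The lesions averaged 98.2 ± 22.4 (SD, n = 5), the control eyes 58.8 ± 11.0 (SD, n = 4). The log2 difference was 0.71 (SE 0.203, 95% interval 0.25 to 1.17, limma adjusted *p* = 0.0164, exact permutation *p* = 0.0238). The call lay near the threshold, with a limma adjusted *p* of 0.0431 with median centring and 0.0490 without control eye 2. *Efna3* and *Efna5* rose by nearly the same amount, but the interval for *Efna3* was the wider one.

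*Epha2*, the receptor gene, was at 22.8, 19.6, 21.6 and 21.96 in control eyes, an even level of 21.5 ± 1.36 (SD, n = 4). In *RBS* lesions it was at 3.75, 4.97, 3.02, 4.87 and 9.63, a mean of 5.25 ± 2.58 (SD, n = 5). Every lesion lay below every control eye, with *RBS* lesion 5 the nearest. The log2 difference was -1.93 (SE 0.250, 95% interval -2.50 to -1.37, limma adjusted *p* = 0.000233; exact permutation *p* = 0.00794), the 43rd largest of 770 by size. These signals stand for about 19.4 to 21.1 counts above background in the eyes and 2.28 to 10.5 in the lesions, so the size of the fall rests on few counts. Where values under 20 were set to 20, every lesion took that value. The difference of -0.10 (limma adjusted *p* = 0.0322) then shows only how far control eyes exceeded 20, and not the level in the lesions. With a pseudocount of 5 the difference was -1.40.

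*Efna1* encodes ephrin-A1, a main ligand of EphA2. It ranged most among the ligand genes, with 168, 129, 139 and 233 in control eyes and 104, 180, 150.2, 236 and 216 in *RBS* lesions. The groups overlapped throughout, and the coefficient of variation was 28.0% and 29.8%. The difference was 0.06 on the log2 scale (95% interval -0.54 to 0.66, limma adjusted *p* = 0.861; exact permutation *p* = 0.833), and its sign turned with centring on the sample median (-0.12) and with quantile normalization (-0.13). A rise or fall within that interval could not be detected with these samples.

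*Efna2* encodes ephrin-A2, which acts with ephrin-A5 in the mapping of retinal axons. It was at 128, 174, 146 and 146 in control eyes and at 127, 143, 135, 139 and 141 in *RBS* lesions. All but 1 lesion lay within the range of the control eyes, and the lesions were close to each other, with a coefficient of variation of 4.61%. The log2 difference of -0.11 (95% interval -0.33 to 0.12, limma adjusted *p* = 0.409; exact permutation *p* = 0.246) had an interval that ends below the rise of *Efna5*. With quantile normalization it was -0.31 and passed the threshold (adjusted *p* = 0.0451).

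**Figure D1:**
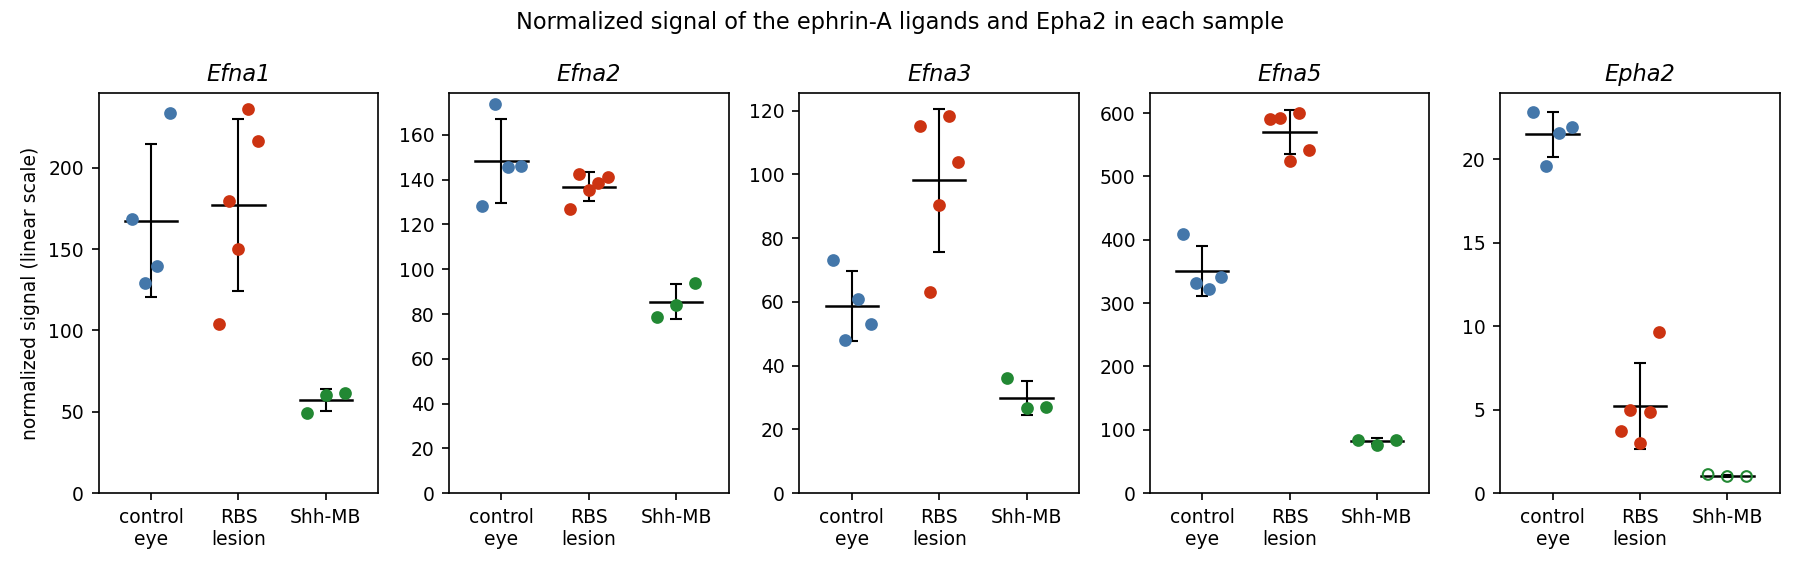
Normalized signal (linear scale from 0) of each gene in every control eye (n = 4), *RBS* lesion (n = 5) and Shh-MB (n = 3); points are samples, lines means, bars SD, and open points samples in which the gene lay at the lowest value. *Efna5* is higher in all 5 lesions than in any control eye, *Epha2* lower, and with the deposited scaling Shh-MBs are lowest for each gene.

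Markers of other cell types differed between the same groups, and their part in the results was not tested. In bulk samples, fewer cells of a type and less RNA per cell cannot be told apart. The 3 retinal progenitor genes of a 13-gene list that the panel held (*Fgf15*, *Hes5*, *Ccnd1*) were all lower in *RBS* lesions, with a summed signal of 3178 to 4641 against 14967 to 20587 in control eyes. None of them was at the lowest value in either eye group, and *Rax* was not on the panel. The 6 neuron genes of 14 summed to 2666 to 3515 in the lesions against 841 to 968, and 5 of 6 were higher. The 4 endothelial genes of 10 summed to 709 to 1012 against 1812 to 2271, a difference carried by *Kdr* alone (-1.49 on the log2 scale). The other endothelial genes, *Flt1*, *Angpt2* and *Nos3*, were not called (0.12, 0.22 and 0.57), and the list's median of 0.17 was that of all genes. The 8 surface epithelium genes of 10 summed to 629 to 1139 against 343 to 681, with 4 of 8 higher. The 11 mesenchyme genes of 12 overlapped in sum (21274 to 38467 against 26458 to 59483), with 1 gene called higher and 3 lower. The 7 blood and immune genes of 11 summed to 222 to 303 against 103 to 175, with 4 of 7 higher. These counts are those of the deposited scaling, where 33% of all panel genes were higher and 18.2% lower. Counts over so few genes were not tested against these shares.

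**Figure D2:**
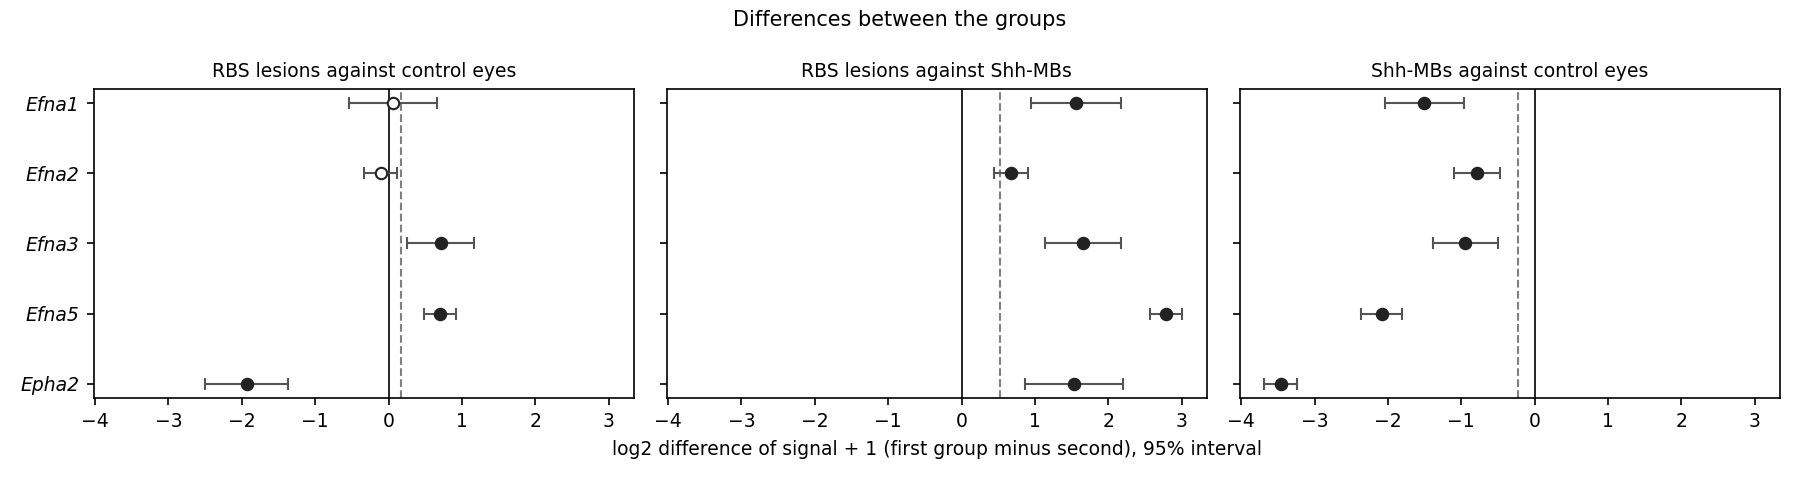
Log2 difference of the signal plus 1 for each gene (x axis) in the 3 comparisons, first group minus second, with 95% intervals; filled points passed the threshold, and the dashed line is the median of all 770 genes. Relative to control eyes, *RBS* lesions differ by 0.70 for *Efna5* and -1.93 for *Epha2*; directions against Shh-MBs are those of the deposited scaling and turn for *Efna2* (*RBS* lesions against Shh-MBs, median centring and quantile) and *Efna3* (Shh-MBs against control eyes, quantile).

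Against Shh-MBs, all 5 genes were higher in *RBS* lesions with the deposited scaling, but *Efna2* was lower with median centring (-0.17) and with quantile normalization (-0.13), neither of which passed the threshold. On the deposited scale 48.1% of all panel genes rose and 12.7% fell, and the median gene was 0.53 higher. The 2 groups did not overlap for any of the 5 genes, against 59.9% of all genes. The comparisons share samples with each other and are not independent. By the methods' t-test so run with step-down Bonferroni, *Efna5* alone passed against Shh-MBs.

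Of the 4 ligand genes, *Efna5* had the largest difference and the smallest *p* between *RBS* lesions and Shh-MBs. Shh-MBs had signals of 84.2, 76.4 and 84.6 (mean 81.8 ± 4.63, SD, n = 3), and the lesion mean was 6.97-fold higher. The lowest lesion, at 524, was far above the highest Shh-MB. The log2 difference was 2.79 (SE 0.0960, limma adjusted *p* = 3.77e-07; exact permutation *p* = 0.0179, the smallest possible), and by *p* it ranked 6th of 770. It passed the threshold with each of the scalings, but median centring gave 1.94 and quantile normalization 2.07.

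*Efna3* was at 36.1, 26.8 and 26.9 in Shh-MBs, and *Efna1* at 49.5, 60.5 and 61.7. Both were about as far below the lesions, with log2 differences of 1.66 (adjusted *p* = 0.000306) for *Efna3* and 1.56 (adjusted *p* = 0.00107) for *Efna1* by limma. With quantile normalization neither passed the threshold (0.54 and 0.75), and with median centring *Efna1* did not (0.72).

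*Efna2* was at 78.6, 83.9 and 93.9 in Shh-MBs. Its log2 difference of 0.68 (limma adjusted *p* = 0.000468) was close to the 0.53 by which the median gene differed. *Epha2* was at the lowest value of the sample in all 3 Shh-MBs (1.12, 1.00 and 1.00), so no fold is given. In *RBS* lesions it was above that value in all 5 samples. The fitted log2 difference of 1.53 (limma adjusted *p* = 0.00189) depends on the pseudocount, and was 0.73 with a pseudocount of 5. With median centring it was 0.68 and did not pass (adjusted *p* = 0.0784).

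**Figure D3:**
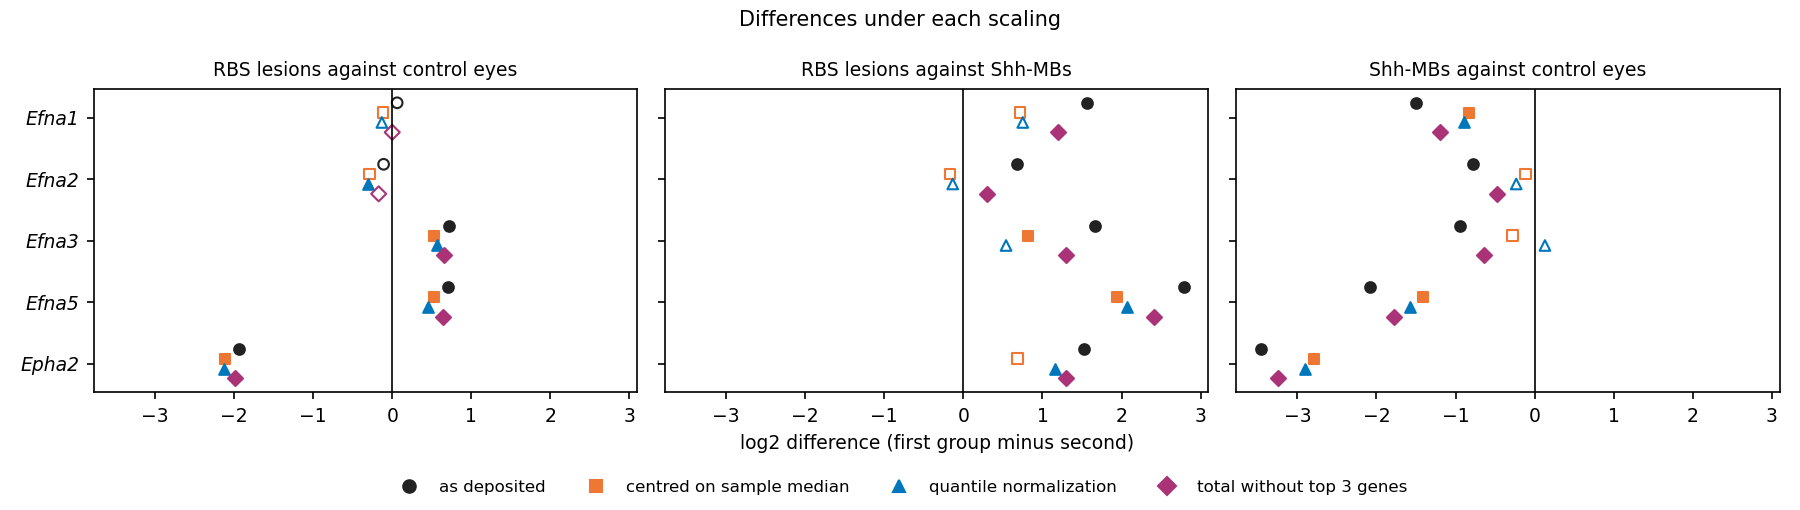
Log2 difference (x axis, first group minus second) of each gene under the deposited values, centring on the sample median, quantile normalization or a total that leaves out the 3 genes of greatest abundance; filled symbols passed the adjusted threshold of 0.05. *Efna3*, *Efna5* and *Epha2* pass under each scaling for *RBS* lesions against control eyes, while *Efna1* changes sign in that comparison and *Efna2* and *Efna3* in 1 of the others each.

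Compared with control eyes, all 5 genes were lower in Shh-MBs with the deposited scaling, although *Efna3* was 0.13 higher with quantile normalization (adjusted *p* = 0.626). Of all panel genes 31.4% fell and 9.61% rose, and the median gene was 0.22 lower. None of the 5 genes overlapped between the 2 groups, against 48.2% of all genes. *Efna5* fell by 2.08 on the log2 scale (limma adjusted *p* = 2.09e-05), or 4.29-fold. *Efna1* fell by 1.50 (adjusted *p* = 0.00181), *Efna3* by 0.95 (adjusted *p* = 0.00628) and *Efna2* by 0.78 (adjusted *p* = 0.00322), and for *Efna2* and *Efna3* the call was lost with median centring and quantile normalization. *Efna5* and *Efna1* stayed called with both, at -1.42 and -0.83 with median centring. *Epha2* was at the lowest value in Shh-MBs and at 19.6 or above in control eyes, with a fitted difference of -3.46 (limma adjusted *p* = 1.70e-06) that was -2.13 with a pseudocount of 5. Where values under 20 were set to 20, every Shh-MB took that value, the difference was -0.10 and the call was lost (limma adjusted *p* = 0.124). In the methods' t-test with step-down Bonferroni, *Efna5* and *Epha2* passed in this comparison. For *Epha2* every Shh-MB was at the lowest value, so the small spread behind its *p* values is not one between animals.

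With the deposited scaling the order of the groups was thus the same for *Efna3* and *Efna5*, with *RBS* lesions first, control eyes next and Shh-MBs last. For *Efna1* and *Efna2* the neighbors *RBS* lesions and control eyes did not differ beyond their spread. For *Epha2* the order was control eyes, *RBS* lesions, Shh-MBs. Granule precursor tumor genes, 4 of 9 on the panel, summed to 7140 to 8650 in Shh-MBs, 1897 to 2109 in the lesions and 2279 to 2556 in the eyes. In Shh-MBs 4 of 4 were called higher than in control eyes. In *RBS* lesions 2 of 4 were called lower than in control eyes, beside 18.2% of all panel genes, and 2 were not called. Mesenchyme genes summed to 1752 to 2414 in Shh-MBs, below both eye groups, with 8 of 11 lower than in control eyes and 1, *Pdgfra*, higher (1.53 on the log2 scale). Surface epithelium genes summed to 21.0 to 26.3, with 6 of 8 lower. Endothelial genes summed to 138 to 256, with 2 of 4 lower than in control eyes, and blood and immune genes to 142 to 266, with 1 of 7 higher. Of all panel genes 31.4% were lower in Shh-MBs than in control eyes and 9.61% higher, and the list counts were not tested against these shares. Neuron genes summed to 781 to 1186, which overlapped control eyes, yet 4 of 6 were called higher than in control eyes and 1, *Mapt*, lower (-1.02), with a median of 0.96. The 3 retina genes summed to 2624 to 2978, where *Fgf15* was between 1.00 and 4.87. The part of these lists in the results was not tested.

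Likeness of pattern was taken as Pearson's *r* over the 12 samples on log2 values, among the 568 other panel genes (569 for *Epha2*) with a mean of at least log2 of 20. The 12 samples form 3 groups, so *r* mostly follows the group means, and it is a description. *Efna5* was most like *Itga6* (*r* = 0.986), *Bmp2* (0.986) and *Bcor* (0.985). *Itga6*, an integrin subunit that binds laminin, averaged 1093 ± 132 (SD, n = 5) in the lesions, 659 ± 113 (SD, n = 4) in control eyes and 194 ± 42.2 (SD, n = 3) in Shh-MBs. It was also the third of the genes most like *Efna3* (0.955), after *Spry1* (0.968), a feedback inhibitor of receptor tyrosine kinase signaling, and *Dtx3* (0.957). *Epha2* was most like *Fbxw7* (0.957), *Dusp6* (0.944) and *Dll4* (0.931). *Dusp6*, a phosphatase that acts on ERK, averaged 718 ± 47.3 (SD, n = 4) for control eyes, 472 ± 41.5 (SD, n = 5) for the lesions and 362 ± 13.8 (SD, n = 3) for Shh-MBs. *Efna1* was most like *Pold4* (0.955), *Pdgfrb* (0.943) and *Sap130* (0.926), and *Efna2* like *Dtx4* (0.955), *Tgfbr1* (0.954) and *Runx1t1* (0.949).

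Proteins that carry the Eph or ephrin signal inside the cell were taken as a list of 62 genes, of which 33 were on the panel. They also serve other receptors. In *RBS* lesions 21 of 33 were higher than in control eyes, 2 were lower and 10 were not called, beside 33% higher and 18.2% lower over the panel. The median log2 difference was 0.38 beside 0.17 for all genes. With median centring 11 of the 33 were higher and 2 lower, where 23.0% of all genes were higher and 23.0% lower. With quantile normalization 13 were higher and 2 lower, where 24.03% of all genes were higher and 23.2% lower. The list's median was 0.20 under both scalings, beside -0.0075 and 0.0027 for all genes. The largest difference was that of *Shc3*, a neuronal adaptor, with 378 ± 61.6 (SD, n = 5) for the lesions and 66.1 ± 7.42 (SD, n = 4) for the eyes (2.49 on the log2 scale, SE 0.140, limma adjusted *p* = 3.16e-06). *Rac3*, a small GTPase that acts on actin, was 1.34 higher (adjusted *p* = 2.42e-05). The kinases *Pak3* and *Pak7*, which act below Rac, were 1.29 and 1.10 higher (adjusted *p* = 0.000102 and 0.000277). *Stat3*, a transcription factor, was 1.29 higher (adjusted *p* = 7.39e-05). The 2 lower genes were *Tiam1*, an activator of Rac that binds Eph receptors, at -0.62 (adjusted *p* = 0.000354), and the adaptor *Shc1*, at -0.58 (adjusted *p* = 0.00966); they are named because of their direction. The neuron genes given above were higher in the same lesions, and their part in these differences was not tested.

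**Figure D4:**
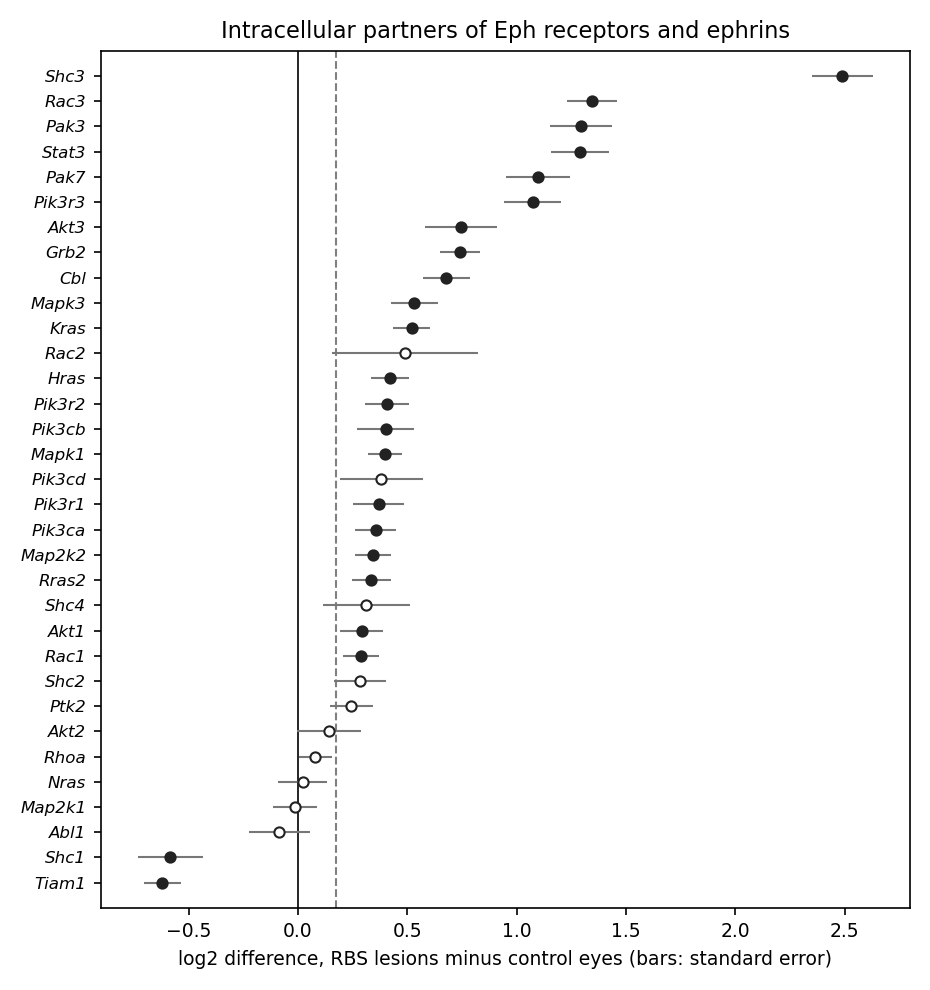
Log2 difference, *RBS* lesions minus control eyes, with standard error for the 33 panel genes that act below Eph receptors or ephrins; filled points passed the adjusted threshold of 0.05, and the dashed line is the median of all 770 genes. With the deposited scaling 21 genes are higher and 2, *Tiam1* and *Shc1*, lower.

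Against Shh-MBs, 26 of the 33 were higher in *RBS* lesions and 1 was lower with the deposited scaling, where 48.1% of all genes were higher and 12.7% lower, and the direction turned with median centring. The median was 0.79 beside 0.53 for all genes. With median centring 7 were higher and 11 lower (all genes 23.5% and 41.4%), with a median of -0.05 beside -0.32. With quantile normalization 15 were higher and 4 lower (26.4% and 30.6%; median 0.30 beside -0.10), and without the top genes in the total 16 and 2 (35.5% and 21.3%; median 0.42 beside 0.19). In Shh-MBs against control eyes 1 was higher and 14 lower with the deposited scaling (median -0.17, all genes -0.22), where 9.61% of all genes were higher and 31.4% lower, and the direction turned with the scaling. There were 18 higher and 4 lower with median centring (all genes 40.4% and 18.1%), 9 and 6 with quantile normalization (29.0% and 19.4%) and 8 and 7 without the top genes in the total (20.8% and 23.0%). The list's median was 0.50 with median centring (all genes 0.44), 0.06 with quantile normalization (all genes 0.17) and 0.15 where samples were scaled to a total that left out the top genes (all genes 0.06).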

How the data were processed

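Normalized nCounter Mouse PanCancer pathways data of 12 mouse samples were used. RNA was isolated from fresh frozen tissue, and counts were normalized by the authors in nSolver with its Advanced Analysis module; background setting and reference genes are not given in the sources used here. The deposited signal is normalized and linear, without the log2 step. Low values are evenly spaced with an offset, so whole counts could not be recovered and no count test was run. Depth was estimated as total signal divided by this step.

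Log2 of the signal plus a pseudocount of 1 was compared 2 groups at a time in R 4.3.3 using limma 3.58.1 (two-sided test, Benjamini-Hochberg over all 770 genes, threshold 0.05), without a filter, and with exact permutation tests over the samples. Group sizes limit precision. Alternatives were the methods' t-test (*p* from the t distribution, without its permutations), other limma settings, scalings and pseudocounts, a filter on a mean signal under 20, a replicate block and leaving out each sample. For Shh-MBs against control eyes the exact test was added after seeing the data. The limma step was tested on simulated data.

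The genes, lists and tests were chosen with earlier results of these data known. Text names the 5 genes, the 3 genes most like each, and the 5 transducers called against control eyes with the largest differences; marker lists are given by counts and sums. *Tiam1*, *Shc1* and single marker genes (the 3 retina genes, the 4 endothelial genes, *Mapt*, *Pdgfra*) were named after their values were seen. Of 770 symbols, 760 matched RefSeq directly. Python 3.11.15 and matplotlib 3.10.9 served for the figures.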

Additional observations from a re-analysis of the deposited data

How the results depend on the processing

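Of 296 recomputed values for the 5 genes in the 3 comparisons, 267 kept their direction and their side of the threshold. With the methods' t-test without its permutations and step-down Bonferroni adjustment no gene remained called between *RBS* lesions and control eyes (0 of 5; *Efna3* 0.71, *Efna5* 0.70, *Epha2* -1.93), although 3 had an unadjusted *p* under 0.05 and 3 passed with Benjamini-Hochberg, as by limma. Against Shh-MBs 1 gene remained (*Efna5*), with 1.56 for *Efna1*, 0.68 for *Efna2*, 1.66 for *Efna3* and 1.53 for *Epha2* not passing, and in Shh-MBs against control eyes 2 remained (*Efna5*, *Epha2*), with -1.50 for *Efna1*, -0.78 for *Efna2* and -0.95 for *Efna3* not passing. With median centring, 2 genes were called for *RBS* lesions against Shh-MBs (*Efna1* 0.72, *Efna2* -0.17 and *Epha2* 0.68 were not) and 3 for Shh-MBs against control eyes (*Efna2* -0.12 and *Efna3* -0.28 were not), and *Efna1* was -0.12 against control eyes. With quantile normalization, 2 genes were called for *RBS* lesions against Shh-MBs (*Efna1* 0.75, *Efna2* -0.13 and *Efna3* 0.54 were not) and 3 for Shh-MBs against control eyes (*Efna2* -0.23 and *Efna3* 0.13 were not), and in *RBS* lesions against control eyes *Efna1* was -0.13 and *Efna2* -0.31, the latter now called. Where values under 20 were set to 20, *Epha2* in Shh-MBs against control eyes was -0.10 and not called, and *RBS* lesions against Shh-MBs had no value, as all were equal. The filter on low means removed *Epha2*. The cause of these changes was not tested. Leaving out each sample in turn changed no call of the 5 genes. *Efna3* in *RBS* lesions against control eyes came near the threshold without control eye 2 (limma adjusted *p* = 0.0490). *Efna1* in *RBS* lesions against control eyes ranged from -0.055 to 0.24, below 0 without *RBS* lesion 4, *RBS* lesion 5, control eye 2 or control eye 3. Samples share replicate numbers across groups, but same-numbered samples did not deviate together (*r* from -0.15 to 0.19). With the replicate block *Efna1* against control eyes was -0.023, no call of the 5 genes changed, and the panel genes called were 301 in place of 394, 407 in place of 468 and 230 in place of 316 in the 3 comparisons. Samples without a same-numbered partner add nothing to the blocked difference, so that fit changed the samples as well as the model, and leaving out *RBS* lesion 5 without a block already gave 359 in place of 394. Depth limits *Epha2* most, as its lesion and Shh-MB values lie at or near the lowest values. Its pass in the methods' t-test for Shh-MBs against control eyes rests on Shh-MB values that all lie at the lowest value.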
